A study of Mus musculus with 24 samples.

Results

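The comparison set a BTK inhibitor (BTKi) against vehicle in mice that had been given cuprizone. Its members were taken from the treatment labels: 8 libraries labelled Cuprizone BTKi and 8 labelled Cuprizone Vehicle, 16 of the 24 libraries of the series. Each library holds the poly(A) RNA of mouse corpus callosum. The other 8 libraries, 4 labelled Naive Vehicle and 4 labelled Naive BTKi, came from mice without cuprizone and are used only to show the drug's effect in that state. The series' design text places the drug after disease had been induced. Neither the labels nor the design text name the compound, its dose, the length of the cuprizone and drug treatments, the interval between the last dose and dissection, or the strain, sex and age of the mice. No label ties a library to an animal of its own. The p-values therefore rest on the spread among these libraries alone, part of which may be technical.

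Cuprizone is a copper chelator that kills mature oligodendrocytes, strips myelin from the corpus callosum, and brings on reactions of microglia and astrocytes. BTK is a kinase found in the cytoplasm of B cells and, among myeloid cells, in microglia and macrophages. It is switched on below the B cell receptor and Fc receptors by Src-family kinases and Syk, and it acts through phospholipase C gamma to raise calcium and to activate protein kinase C, NF-kappaB and NFAT. Immediate early genes, many of which encode transcription factors, are transcribed soon after a stimulus without new protein synthesis, in neurons after synaptic activity and in other cells after growth factors or stress, and their mRNAs are short-lived.

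Gene levels were deposited as FPKM, fragments per kilobase of transcript scaled to the mapped fragments of the library. The 16 cuprizone libraries held about 26500000 to 31000000 fragments and 15076 to 15435 genes at 0.5 FPKM or more, and mitochondrial genes took 10.5% to 13.3% of their FPKM. Of the 54446 genes in the table, 15216 had a mean of at least 0.5 FPKM over the 24 libraries and were tested on log2(FPKM + 0.5) with limma. All differences below are on this log2 scale, BTKi minus vehicle, which understates the change of low genes. A gene is said to have risen or fallen when its Benjamini-Hochberg adjusted p over all genes was under 0.05. The labelled tissue was checked against markers. The myelin gene Mbp lay between 612 and 1486 FPKM in the 16 libraries, and Gfap, of astrocytes, between 181 and 337 FPKM. Neuronal transcripts were abundant for a label of white matter, with Snap25, a presynaptic fusion protein, at 868 to 1100 FPKM. Choroid plexus RNA varied widely between libraries. The summed FPKM of 12 choroid plexus markers was 94.7, 117 and 211 in vehicle replicates 4, 7 and 1 and 549 to 1920 in the other 13 libraries. Results for some lists are therefore also given without those 3 libraries. Lists for which that fit is not given may move too.

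In cuprizone mice given BTKi a small set of genes changed, 11 of them members of a pair of lists of immediate early and rapidly induced genes. All lists were chosen with earlier results of these data known, so counts of their members are not independent support. In all, 27 genes passed the test, 0.177% of those tested. Of these, 21 fell (0.138%) and 6 rose (0.0394%). With quantile normalization 21 genes passed, 13 lower and 8 higher. Nr4a1, Junb, Arc and Ier2 had the smallest p, and on the log2(FPKM + 0.5) scale Arc was 49.4% lower. None of the 27 differed by 2-fold on that scale; 1700016P03Rik, a low gene, was at -0.92 there and at -1.12 with a pseudocount of 0.1. The median difference of all genes was -0.02, and for 99.4% of genes the 95% interval lay within 2-fold either way. At an unadjusted p under 0.05, 994 genes were lower (6.53%) and 344 higher (2.26%). With median ratio scaling of the libraries these were 652 (4.28%) and 588 (3.86%). In 14 of the 27 genes the ranges of the BTKi and vehicle libraries did not overlap, which held for 0.131% of all genes. In bulk RNA, fewer cells of a type and less RNA per cell cannot be told apart.

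**Figure D1:**
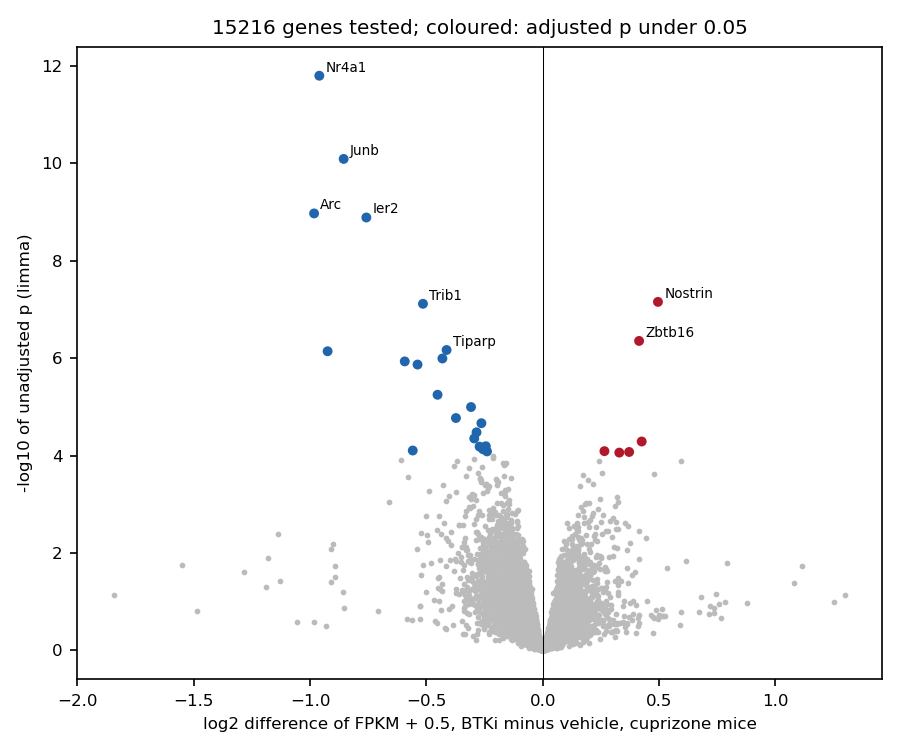
Each point is 1 gene tested, with the log2 difference (BTKi minus vehicle, cuprizone mice) on the x axis and -log10 of the unadjusted limma p on the y axis. The 21 genes that fell are blue and the 6 that rose are red. Nr4a1, Junb, Arc and Ier2 stand above all others.

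Promoters are shown for 4 of these genes. They are the 3 lower genes and the 1 higher gene with the smallest p that the RefSeq table used here holds (GRCm38.p6). Each runs 5′ to 3′ along the gene from 250 bases before the annotated start to 50 bases after it. Nr4a1 is chr15:101266596-101266895 on the plus strand, Junb chr8:84978699-84978998 on the minus strand, Tiparp chr3:65528197-65528496 on the plus strand and Nostrin chr2:69135550-69135849 on the plus strand. Capitals mark every match to one of the searched motifs, and Tiparp held none.
Nr4a1: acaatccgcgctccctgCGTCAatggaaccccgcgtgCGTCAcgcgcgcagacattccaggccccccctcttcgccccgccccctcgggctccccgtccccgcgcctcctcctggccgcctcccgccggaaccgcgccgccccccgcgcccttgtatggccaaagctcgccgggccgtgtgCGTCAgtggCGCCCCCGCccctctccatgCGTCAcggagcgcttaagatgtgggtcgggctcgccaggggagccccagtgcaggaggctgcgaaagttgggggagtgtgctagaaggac
Junb: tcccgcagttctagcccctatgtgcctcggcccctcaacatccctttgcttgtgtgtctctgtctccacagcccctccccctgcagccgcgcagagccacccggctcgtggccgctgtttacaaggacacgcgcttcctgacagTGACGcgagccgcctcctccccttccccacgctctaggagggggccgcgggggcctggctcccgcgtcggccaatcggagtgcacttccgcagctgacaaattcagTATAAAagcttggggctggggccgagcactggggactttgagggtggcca
Tiparp: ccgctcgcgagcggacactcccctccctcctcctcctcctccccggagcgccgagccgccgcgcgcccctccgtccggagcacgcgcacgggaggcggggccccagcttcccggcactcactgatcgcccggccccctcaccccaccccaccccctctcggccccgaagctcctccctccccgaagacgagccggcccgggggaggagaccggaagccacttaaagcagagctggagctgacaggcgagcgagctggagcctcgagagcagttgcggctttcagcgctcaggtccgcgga
Nostrin: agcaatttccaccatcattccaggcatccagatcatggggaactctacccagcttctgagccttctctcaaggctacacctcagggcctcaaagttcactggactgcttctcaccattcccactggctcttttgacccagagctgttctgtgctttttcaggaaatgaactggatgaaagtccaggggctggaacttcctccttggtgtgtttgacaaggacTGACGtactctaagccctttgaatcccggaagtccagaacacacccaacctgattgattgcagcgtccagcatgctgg
The capitals in Nr4a1 are the core of the cAMP response element, TGACG read on either strand, at bases -233, -213, -69 and -40 from the start, and an Egr motif (GCGNGGGCG) at base -60. In Junb they are 1 such core at base -106 and the letters TATAAA at base 0, the start in the RefSeq table. In Nostrin they are 1 core at base -28. The gene spans printed below come from GENCODE, and their starts can differ. Junb starts there at 84978718, downstream of base 0, and Nr4a1 at 101254269, upstream of its window. The table held 21 of the 27 genes, 16 lower and 5 higher. The core TGACG stood in 10 of the 16 lower and 3 of the 5 higher genes, against 20.8% of all 32851 windows. The full element TGACGTCA, which contains the core, stood in 2 of 16 lower genes, Btg2 and Dusp1, and in 2 of 5 higher genes, against 1.79%. The E-box CACGTG was found in 5 of 16 lower genes (7.15% of all windows), the Egr motif in 3 (5.55%), TATAAA in 2 (13.6%) and the CArG box in 1 (1.63%), and in none of the 5 higher genes. The AP-1 motif TGANTCA was in 0 of 16 lower and 1 of 5 higher genes (7.81%). The palindromic glucocorticoid response element was in no window of the 21 genes (0.00913%). Both strands were searched, and a match describes the letters only.

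Immediate early genes of the AP-1, Egr and Nr4a families and their companions, Arc among them, held the 3 genes with the smallest p. Of 20 such immediate early genes, 19 passed the filter on low values; 5 fell (Nr4a1, Junb, Arc, Fos and Egr2) and none rose, against 0.138% lower over all genes. The list was chosen with earlier results of these data known, so this count is not independent support. The median difference of the 19 was -0.15. At an unadjusted p under 0.05, 10 of the 19 were lower, against 6.53% of all genes. Nr4a1 (chr15:101254269-101274795, plus strand) encodes an orphan nuclear receptor. Its lowest, median and highest values were 54.5, 62.0 and 72.2 FPKM under vehicle and 26.8, 32.6 and 40.2 FPKM under BTKi. Every BTKi library was below every vehicle library. The difference was -0.96 ± 0.074 (SE), adjusted p = 2.4e-08. Junb (chr8:84974484-84978718, minus strand), an AP-1 subunit, ran from 41.6 to 65.1 FPKM (median 49.0) under vehicle and from 24.3 to 32.8 FPKM (median 27.7) under BTKi. These ranges did not meet either, and the difference was -0.86 ± 0.079 (SE), adjusted p = 6.13e-07. Arc (chr15:74669083-74672570, minus strand) encodes a synaptic protein that controls glutamate receptor uptake. It ran from 101 to 160 FPKM (median 127) under vehicle and from 48.6 to 91.1 FPKM (median 60.6) under BTKi. The highest BTKi value, in replicate 2, was still below the lowest vehicle value, and the difference was -0.98 ± 0.10 (SE), adjusted p = 4.90e-06.

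Fos and Egr2 fell less. Fos (chr12:85473890-85477273, plus strand), the founding AP-1 partner of the Jun proteins, ran from 17.5 to 24.8 FPKM (median 21.1) under vehicle and from 9.72 to 16.5 FPKM (median 14.9) under BTKi, a difference of -0.54 ± 0.085 (SE), adjusted p = 0.00171. Its ranges did not overlap. Egr2 (chr10:67535475-67542188, plus strand), a zinc finger factor, ran from 4.01 to 6.39 FPKM under vehicle and from 2.12 to 4.95 FPKM under BTKi. In 7 of 8 BTKi libraries it was below the lowest vehicle library, and the difference was -0.56 ± 0.12 (SE), adjusted p = 0.0489. That call was lost in 21 of 24 fits that left out 1 library. Close relatives had differences near 0. Fosb differed by 0.00 (95% interval -0.18 to 0.18), Egr3 by 0.01 (-0.16 to 0.18) and Nr4a2 by -0.01 (-0.25 to 0.23). Between them lay Egr1 at -0.20 (adjusted p = 0.475), Jun at -0.15 (adjusted p = 0.568) and Nr4a3 at -0.14 (adjusted p = 0.662); Egr3 and Jun were added after their values were seen. Npas4, a neuronal activity factor, was at -0.58 with adjusted p = 0.0852, and it passed the test without BTKi replicate 2 (adjusted p = 0.0417). Neuron markers were at like levels in both groups, with a summed FPKM of 15 general neuron genes of 3820 to 4149 under vehicle and 3689 to 3947 under BTKi. None of the 15 passed the test, their median was -0.02, and 1 had a lower level at an unadjusted p below 0.05 (6.53% of all genes).

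**Figure D2:**
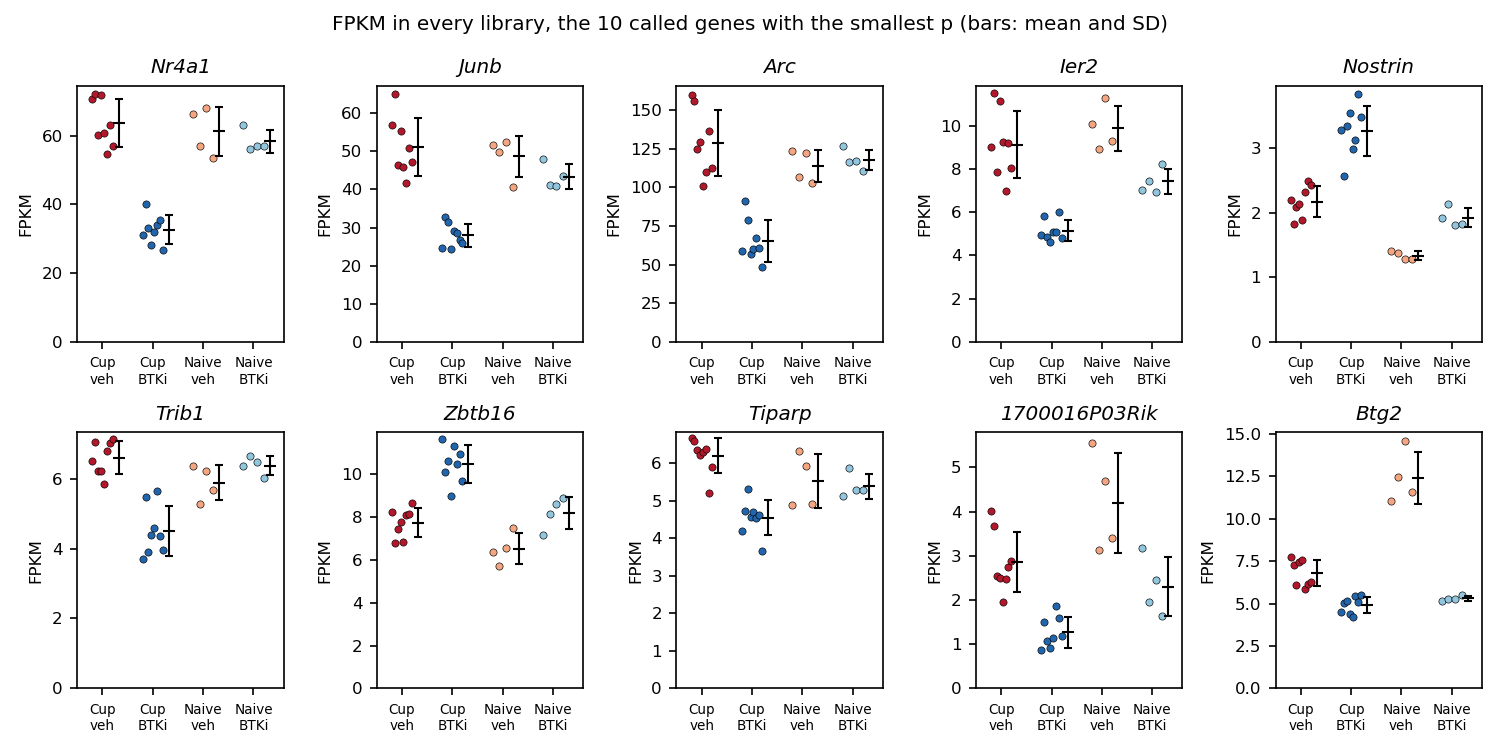
FPKM on the y axis in every library of the 4 groups (Cup, cuprizone; veh, vehicle), for the 10 genes with the smallest p; points are libraries and bars the mean and SD. In cuprizone mice all 8 BTKi libraries lie below all 8 vehicle libraries for Nr4a1, Junb, Arc, Ier2, Trib1, 1700016P03Rik and Btg2, and above them for Nostrin and Zbtb16.

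Rapidly induced genes outside those families also fell. Of 32 such genes, all tested, 6 fell (Ier2, Trib1, Tiparp, Btg2, Csrnp1 and Per1) and none rose, against 0.138% lower over all genes. At an unadjusted p under 0.05, 13 were lower (6.53% of all genes) and 1 higher (2.26%), and the median was -0.08. This list too was chosen with earlier results known, so its counts are not independent support. Ier2 (chr8:84661331-84662852, minus strand), a nuclear immediate early protein, ran from 6.97 to 11.5 FPKM (median 9.12) under vehicle and from 4.60 to 6.00 FPKM (median 5.01) under BTKi. The ranges were apart, with a difference of -0.76 ± 0.081 (SE), adjusted p = 4.90e-06. Trib1 (chr15:59648350-59657099, plus strand), a pseudokinase that sends C/EBP factors to degradation, ran from 5.86 to 7.15 FPKM under vehicle and from 3.71 to 5.65 FPKM under BTKi (-0.51 ± 0.068 SE, adjusted p = 0.000193). Btg2 (chr1:134075170-134079120, minus strand), an antiproliferative partner of the mRNA deadenylase complex, ran from 5.84 to 7.76 FPKM under vehicle and from 4.21 to 5.49 FPKM under BTKi (-0.43 ± 0.067 SE, adjusted p = 0.00154). Both genes had no overlap between the groups. Tiparp (chr3:65528410-65555518, plus strand), an ADP-ribosyltransferase, had a median of 6.33 FPKM under vehicle and 4.60 FPKM under BTKi, with 7 of 8 BTKi libraries below the lowest vehicle library (-0.41 ± 0.062 SE, adjusted p = 0.00122). Csrnp1 (chr9:119971163-119984658, minus strand), a nuclear protein, was at 6.94 FPKM and 4.76 FPKM in the median library of each group (-0.45 ± 0.078 SE, adjusted p = 0.00659). The related Ier5 (-0.05), Tob2 (-0.07), Klf4 (-0.06) and Zfp36 (0.08) gave adjusted p of 0.759 or more and were chosen for mention after their values were seen. Sik1, a salt-inducible kinase, was at -0.37 with adjusted p = 0.0586 and was likewise chosen afterwards.

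The dual-specificity phosphatases, which remove phosphate from MAP kinases and are themselves induced by them, were split. Of 21 genes of this feedback group, 19 were tested and 3 fell, all phosphatases: Dusp1, Dusp5 and Dusp6 (0.138% of all genes fell). At an unadjusted p under 0.05, 5 were lower (6.53% of all genes) and 2 higher (2.26%). Dusp1, the nuclear phosphatase of p38 and JNK, ran from 22.8 to 29.4 FPKM (median 26.7) under vehicle and from 12.7 to 22.0 FPKM (median 18.0) under BTKi. The groups did not overlap, and the difference was -0.59 ± 0.093 (SE), adjusted p = 0.00161. Dusp6 (chr10:99263231-99267489, plus strand), which acts on ERK in the cytoplasm, ran from 24.7 to 33.0 FPKM under vehicle and from 20.3 to 25.4 FPKM under BTKi. Its ranges overlapped, with 5 of 8 BTKi libraries below all vehicle libraries (-0.31 ± 0.056 SE, adjusted p = 0.0109). Dusp5 (chr19:53529109-53542431, plus strand), which acts on ERK in the nucleus, ran from 6.87 to 9.55 FPKM under vehicle and from 4.80 to 7.17 FPKM under BTKi (-0.37 ± 0.070 SE, adjusted p = 0.0172). Its call was lost without vehicle replicate 2 (adjusted p = 0.0519). The Sprouty inhibitors of receptor tyrosine kinase signalling and the ERK-responsive factor Etv5 did not pass: Spry4 was at -0.21 (adjusted p = 0.347), Spry2 at -0.05 (adjusted p = 0.822) and Etv5 at 0.05 (adjusted p = 0.893). The median of the 19 genes was 0.01.

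The other genes that fell had varied roles. 1700016P03Rik (chr11:75172560-75177633, plus strand) is a noncoding transcript that holds Mir212 and Mir132, microRNAs of activity-regulated neurons. It ran from 1.94 to 4.02 FPKM (median 2.65) under vehicle and from 0.870 to 1.86 FPKM (median 1.16) under BTKi. No library of one group reached the other, and the difference was -0.92 ± 0.14 (SE), adjusted p = 0.00122. The microRNAs themselves were not measured in poly(A) libraries of this kind. Per1 (chr11:69095217-69109960, plus strand), a repressor of the circadian clock that is also an immediate early gene, ran from 35.1 to 40.5 FPKM (median 39.6) under vehicle and from 28.2 to 37.7 FPKM (median 31.4) under BTKi, with 7 of 8 BTKi libraries below all vehicle libraries (-0.27 ± 0.056 SE, adjusted p = 0.0474). It was the only one of 21 clock genes to pass (0.138% of all genes fell). At an unadjusted p under 0.05, 5 of the 21 were lower (6.53% of all genes) and 2 higher (2.26%). Per2 (0.13), Nr1d1 (-0.14) and Dbp (-0.07) had adjusted p of 0.409 or more. No label gives the hour of dissection. Plk3, a polo-like stress kinase (-0.24, adjusted p = 0.0474), Trim45, a ubiquitin ligase (-0.26, adjusted p = 0.0205), Otud1, a deubiquitinase (-0.28, adjusted p = 0.0297), Wnt9a, a Wnt ligand (-0.29, adjusted p = 0.0376), Htatip2, a tumour suppressor (-0.26, adjusted p = 0.0489), and Kdm6b, a histone H3 demethylase (-0.24, adjusted p = 0.0489), fell by smaller amounts. Trim45 and Htatip2 had no overlap between the groups; the other 4 did. Plk3 was the only one of 30 late activity-response genes of neurons to pass (0.138% of all genes fell). Bdnf (-0.04) and Homer1 (0.14) had adjusted p of 0.892 and 0.741. Junb, Tiparp, 1700016P03Rik, Csrnp1, Dusp5, Plk3 and Kdm6b overlap a gene on the opposite strand, and Csrnp1 also overlaps Cx3cr1, a microglial receptor gene, on its own strand. Among the higher genes, Nr6a1 overlaps other genes on the opposite strand, and Gm44146 and Gm44144 on its own strand. The kit marks strand, but no source states whether the counting used it, so reads of such partners may be included.

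The 6 genes that rose included 1 endothelial marker and a pair known as glucocorticoid-induced. Nostrin (chr2:69135800-69189330, plus strand), an adaptor that binds endothelial nitric oxide synthase, ran from 1.83 to 2.49 FPKM (median 2.17) under vehicle and from 2.56 to 3.84 FPKM (median 3.31) under BTKi. Every BTKi library was higher, and the difference was 0.50 ± 0.065 (SE), a rise of 41.0%, adjusted p = 0.000193. The other 11 endothelial genes did not pass (0.0394% of all genes rose), and Cldn5 was at -0.15 (adjusted p = 0.490). With Nostrin included, 7 of the 12 were above 0 and 5 below, with a median of 0.05. At an unadjusted p under 0.05, 2 of the 12 were higher (2.26% of all genes) and 1 lower (6.53%). Zbtb16 (chr9:48654297-48836222, minus strand), a zinc finger repressor, ran from 6.78 to 8.69 FPKM under vehicle and from 8.99 to 11.7 FPKM under BTKi, without overlap (0.41 ± 0.061 SE, adjusted p = 0.000960). Map3k6 (chr4:133240818-133252929, plus strand), a stress-activated kinase, ran from 2.82 to 3.84 FPKM under vehicle and from 4.34 to 5.21 FPKM under BTKi, also without overlap (0.43 ± 0.087 SE, adjusted p = 0.0411). Among 23 glucocorticoid-induced genes tested these were the only ones to pass (0.0394% of all genes rose). At an unadjusted p under 0.05, 4 of the 23 were higher (2.26% of all genes) and 1 lower (6.53%). Sgk1 was at 0.32 (adjusted p = 0.259), Tsc22d3 at 0.12 (adjusted p = 0.608) and Fkbp5 at 0.09 (adjusted p = 0.669), and the list's median was 0.02. Tinagl1, a secreted matrix protein (0.33), Mterf1b, a mitochondrial transcription factor (0.37), and Nr6a1, an orphan nuclear receptor (0.27), each had adjusted p = 0.0489 and ranges that overlapped. Mterf1b has a close paralog, Mterf1a, so its reads are uncertain.

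**Figure D3:**
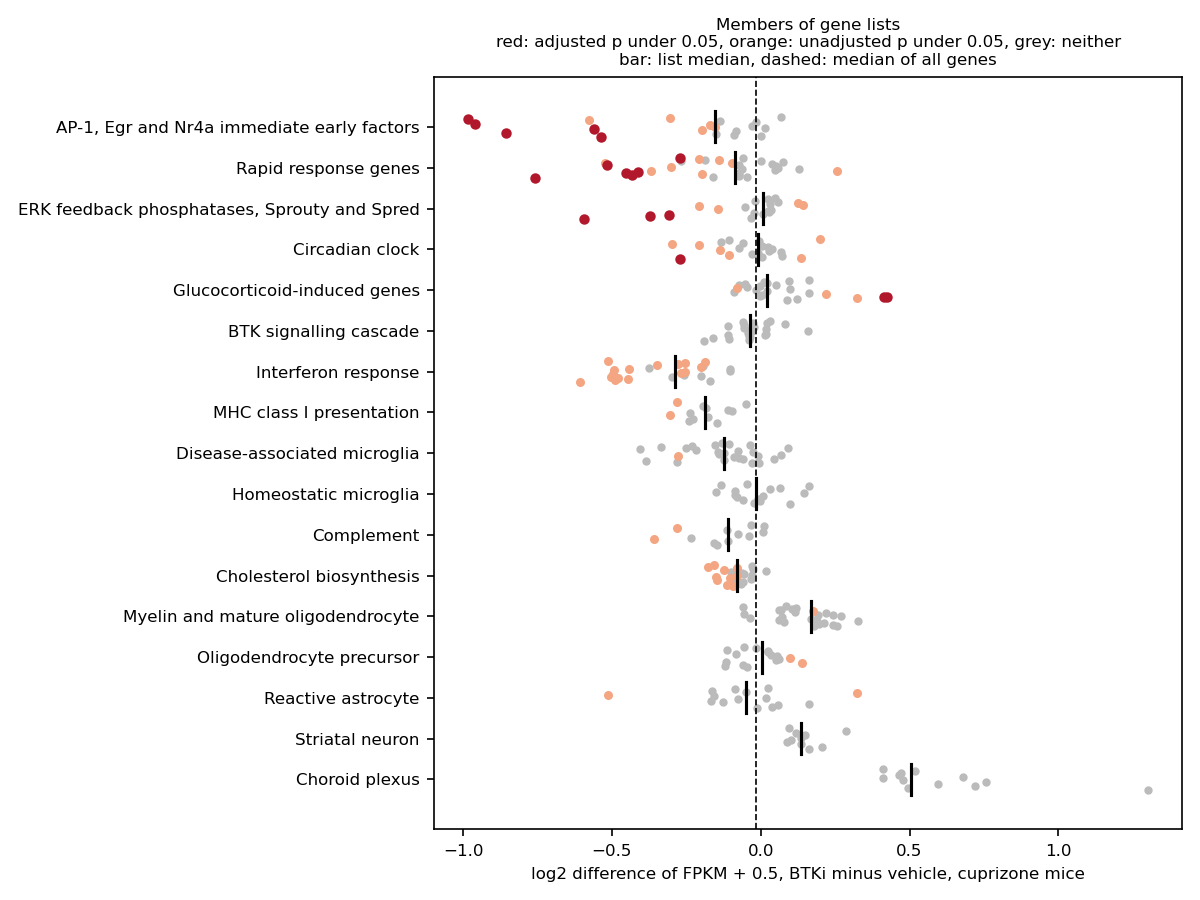
Log2 difference (x axis, BTKi minus vehicle in cuprizone mice) of every tested member of 17 gene lists (rows); points are genes, bars list medians, and the dashed line the median of all genes. Genes that passed the test lie at the left in the top 4 rows and at the right in the glucocorticoid row. The interferon row lies wholly left of 0 with a median of -0.29 and no gene past the test.

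The depth of support differed among the 27 genes. All kept their direction in every alternative fit. Nr4a1, Junb, Arc, Ier2, Trib1, Tiparp, 1700016P03Rik and Fos among the lower genes, and Nostrin and Zbtb16 among the higher, passed in all 24 fits that left out 1 library and all 13 other alternatives. Btg2, Dusp1, Csrnp1 and Dusp6 passed in all 24 and failed in 1 or 2 of the others. The remaining 13 failed in at least 1 leave-one-out fit. Dusp5 failed in 1 of the 24, Trim45 in 5, Otud1 and Wnt9a in 10, and Map3k6, Plk3 and Per1 in 15. Htatip2 failed in 19, Kdm6b and Mterf1b in 20, Egr2 and Tinagl1 in 21, and Nr6a1 in 22. The total fell to 14 without vehicle replicate 2, to 16 without BTKi replicate 3, 7 or 8, and to 17 without vehicle replicate 4 or BTKi replicate 1. Without vehicle replicates 1, 4 and 7, low in choroid plexus RNA, 11 genes passed (0.0723%), all of them among the 27: the 10 above and Btg2. When the fit held only the cuprizone libraries, 18 of the 27 still passed, 15 lower and 3 higher. Among the 21 lower genes, vehicle replicates 1 and 4 each held the vehicle group's highest value for 6 and replicate 6 the lowest for 7. BTKi replicate 2 held the BTKi group's highest value for 9, and BTKi replicate 4 the lowest for 7.

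Without cuprizone the drug's effect on these genes was different in part. The naive comparison shares no library with the cuprizone one. There 33 genes passed the test (0.217%). Of the 21 genes lower in cuprizone mice, 11 were below 0 and 10 above 0 in naive mice, with a median of -0.01. Of the 6 higher genes, 5 were above 0, with a median of 0.23. Nr4a1 was between 53.4 and 68.1 FPKM under naive vehicle and between 56.0 and 63.2 FPKM under naive BTKi, a difference of -0.06 (95% interval -0.28 to 0.15). Both naive groups were near the cuprizone vehicle level, and the cuprizone BTKi libraries stood below all other libraries. Arc gave the same picture, with 103 to 123 FPKM under naive vehicle, 111 to 127 FPKM under naive BTKi and a difference of 0.05 (-0.25 to 0.35). Junb differed by -0.16 (-0.39 to 0.07) and Trib1 by 0.11 (-0.09 to 0.31) in naive mice.

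The test of the difference between the drug effects in cuprizone and naive mice called 19 genes (0.125%). In 18 of them the effect in cuprizone mice was below that in naive mice (0.118%). That can hold without a fall in cuprizone mice: Sntb2 was at 0.02 there and at 0.41 in naive mice. Of the 19, 9 were among the 27: Nr4a1, Junb, Arc, Trib1, Btg2, Dusp6, Dusp5, Plk3 and Per1. The difference was -0.90 for Nr4a1 (adjusted p = 0.00187), -1.03 for Arc (adjusted p = 0.0103), -0.70 for Junb (adjusted p = 0.0305) and -0.62 for Trib1 (adjusted p = 0.0230). Per1 moved in opposite directions, rising in naive mice from 28.4 ± 3.32 to 37.5 ± 2.93 FPKM (SD, n = 4; 0.40, adjusted p = 0.0332) where it fell in cuprizone mice. Its partner Per2 also rose in naive mice (0.57, adjusted p = 0.00317). Dusp5 (0.30), Dusp6 (0.23) and Plk3 (0.30) were above 0 in naive mice without passing the test there, with adjusted p of 0.203, 0.216 and 0.0846. Btg2 fell in both states and by more in naive mice, from 12.4 ± 1.56 to 5.30 ± 0.137 FPKM (SD, n = 4; -1.15, adjusted p = 1.09e-07). Its ranges under BTKi overlapped between the naive and cuprizone groups, 5.18 to 5.49 and 4.21 to 5.49 FPKM. For the other 18 of the 27 genes the difference did not pass. Nostrin (0.40), Zbtb16 (0.31), 1700016P03Rik (-0.74) and Ier2 (-0.39) had the same sign in naive mice at adjusted p of 0.0654 to 0.146, and adjusted p of 0.410 to 0.837 for the difference. The calls of the difference rest on 4 libraries a group in naive mice. Nr4a1, Arc, Btg2, Per1 and Plk3 kept theirs without any single library, Junb lost it in 11 of 24 such fits, Trib1 in 5, and Dusp5 and Dusp6 in 2 each, the highest adjusted p coming without naive BTKi replicate 1 for Junb (0.101), naive vehicle replicate 2 for Trib1 (0.0806), naive BTKi replicate 4 for Dusp5 (0.0612) and naive BTKi replicate 3 for Dusp6 (0.0533).

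**Figure D4:**
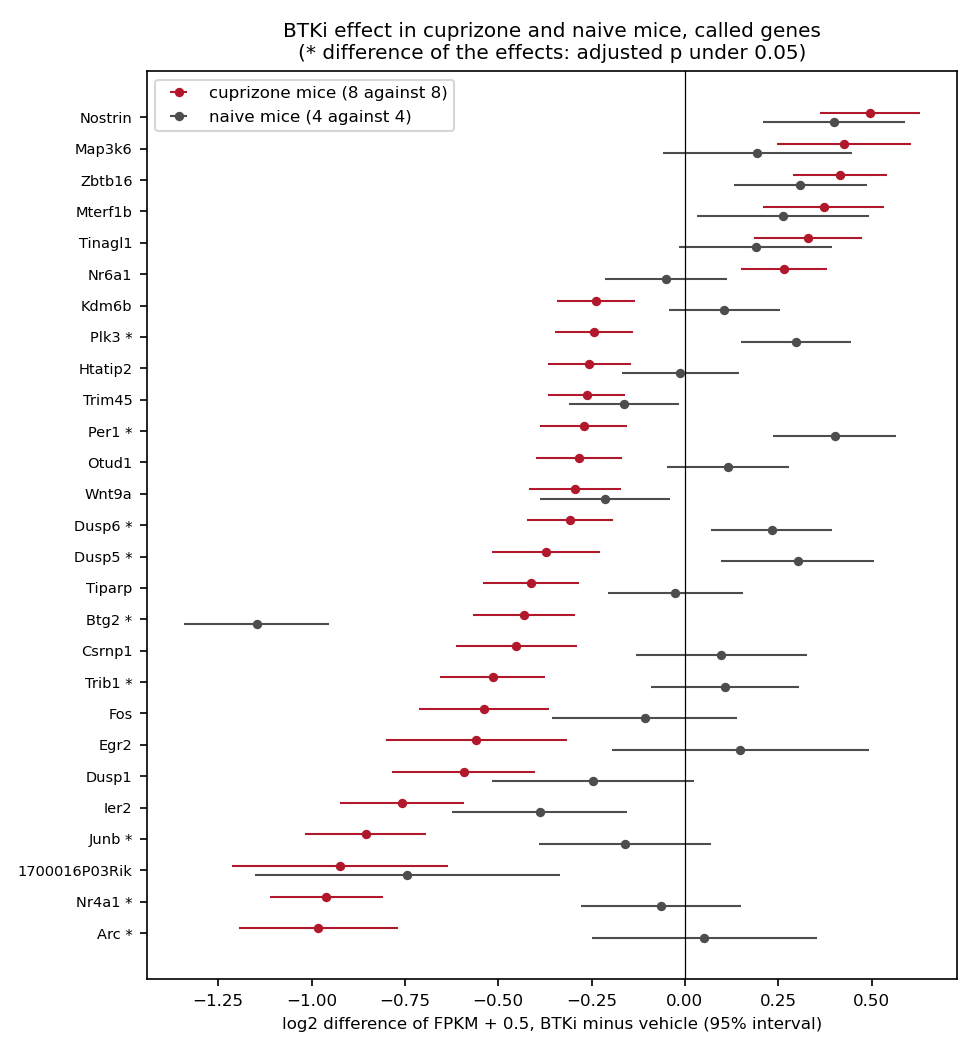
Log2 difference (x axis, BTKi minus vehicle) with its 95% interval for the 27 genes (rows) in cuprizone mice (red) and naive mice (grey). Stars mark the 9 genes whose effects differed between the states; Nr4a1 and Arc lie near 0 in naive mice, Per1, Plk3, Dusp5 and Dusp6 on the other side of 0, and Btg2 further below it.

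No transcript of the drug's own pathway passed the test. Of 25 genes of the BTK cascade 23 were tested, none was called and none reached an unadjusted p of 0.05, against 8.79% of all genes. Btk (chrX:134542336-134583570, minus strand) ran from 0.688 to 1.69 FPKM (median 0.838) under vehicle and from 0.535 to 1.16 FPKM (median 0.726) under BTKi. These overlapping ranges gave a difference of -0.19 (95% interval -0.45 to 0.07), adjusted p = 0.705. The kinases above it, Syk (-0.04) and Lyn (-0.10), the adaptor Blnk (-0.04) and the phospholipase Plcg2 (-0.04) had intervals from -0.35 to 0.18. Without the 3 vehicle libraries low in choroid plexus RNA, 3 of the 23 were lower at an unadjusted p under 0.05, against 7.37% of all genes, and none passed. The activity of the kinase was not measured. None of 10 Fc receptor genes passed or reached an unadjusted p of 0.05, against 8.79% of all genes at that p. Of 14 NF-kappaB subunits and feedback inhibitors none passed, 10 were below 0 and the median was -0.08. At an unadjusted p under 0.05, 2 were lower (6.53% of all genes) and 1 higher (2.26%). The highest was the inhibitor Nfkbia at 0.16 (adjusted p = 0.466). Of 10 B cell markers 3 passed the filter on low values, and of 10 neutrophil genes none did. The summed FPKM of the 10 B cell markers was 25.6 to 46.4 under vehicle and 24.5 to 33.3 under BTKi.

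Interferon response genes were all below 0, and none passed the test. Of 25 genes 24 were tested, and 16 were lower at an unadjusted p under 0.05, against 6.53% of all genes. Their median was -0.29. Ifit1 (chr19:34640871-34650009, plus strand), an antiviral RNA-binding protein, ran from 3.00 to 7.24 FPKM (median 4.30) under vehicle and from 2.01 to 3.75 FPKM (median 2.98) under BTKi. The ranges overlapped, and the difference was -0.61 (95% interval -0.88 to -0.33), adjusted p = 0.0586. The summed FPKM of the list was highest in vehicle replicates 5, 8 and 6 (259, 250 and 225) and ran from 133 to 192 in the other 5 vehicle libraries and from 128 to 187 under BTKi. Ifit3 was at -0.49 (adjusted p = 0.118), Oasl2 at -0.50 (adjusted p = 0.199) and the chemokine Cxcl10 at -0.51 (adjusted p = 0.441). Irf9, a subunit of the interferon-activated factor, was at -0.27 (adjusted p = 0.0905); Ifit1 and Irf9 were singled out after their values were seen. Without the 3 vehicle libraries low in choroid plexus RNA, all 24 were lower at an unadjusted p under 0.05 (7.37% of all genes), the median was -0.47 and the smallest adjusted p was 0.0527. In naive mice the median was -0.02. The difference between states passed for none, and 4 of 24 were lower at an unadjusted p under 0.05, against 4.88% of all genes.

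**Figure D5:**
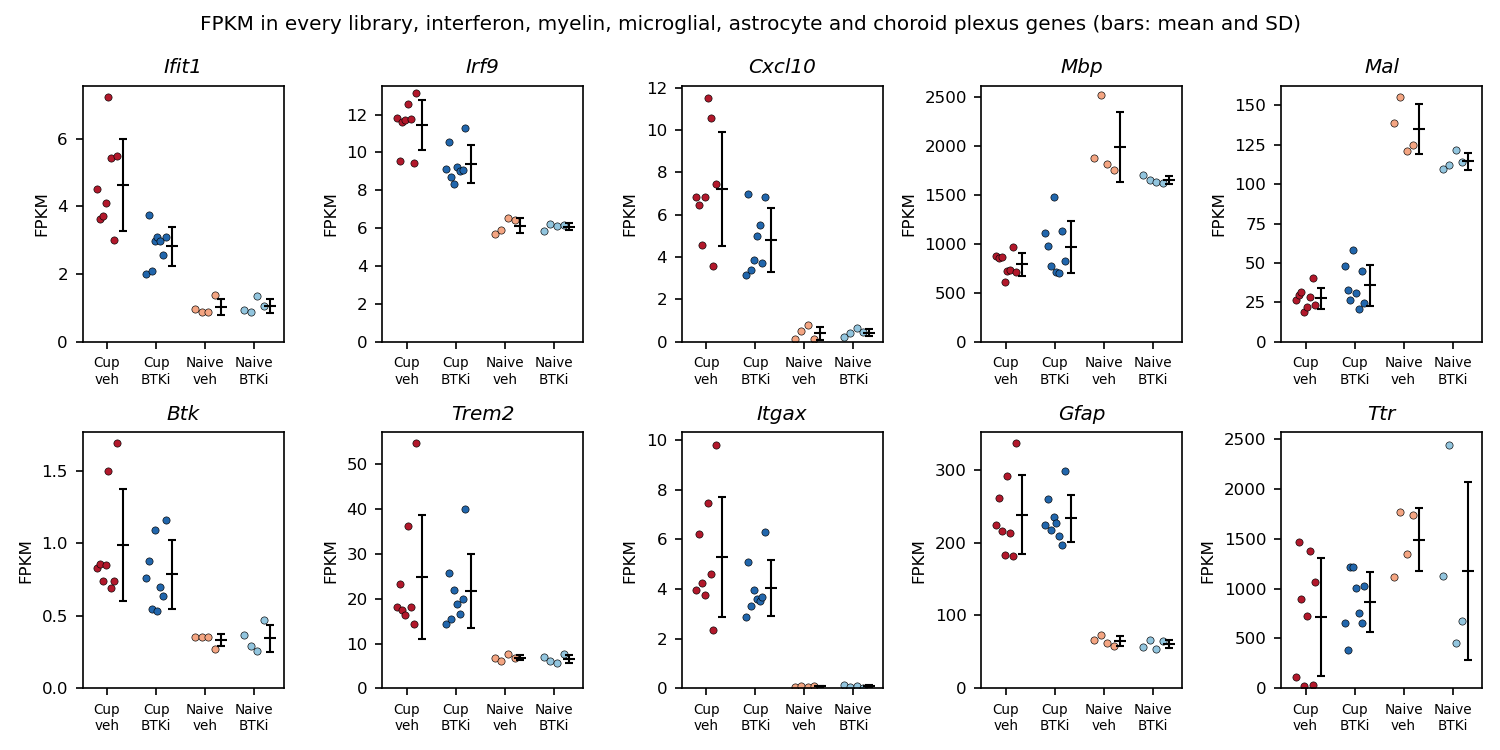
FPKM on the y axis in every library of the 4 groups (Cup, cuprizone; veh, vehicle) for interferon (Ifit1, Irf9, Cxcl10), myelin (Mbp, Mal), microglial (Btk, Trem2, Itgax), astrocyte (Gfap) and choroid plexus (Ttr) genes; points are libraries and bars the mean and SD. None passed the test in cuprizone mice. Vehicle replicates 1, 4 and 7 lie near the bottom of the Ttr panel.

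Microglial and astrocyte genes of the demyelinated tissue did not pass the test. None of 27 genes of disease-associated microglia passed; 24 were below 0, 1 was lower at an unadjusted p under 0.05 (6.53% of all genes), and the median was -0.12. Trem2, the lipid receptor of such microglia, ran from 14.4 to 54.7 FPKM (median 18.2) under vehicle and from 14.4 to 40.01 FPKM (median 19.4) under BTKi. The spread within each group was wide and the medians were close. Its difference was -0.12 (95% interval -0.57 to 0.33). Itgax was at -0.28 (-0.66 to 0.10), Apoe at 0.05 (-0.20 to 0.30) and Cst7 at -0.01 (-0.94 to 0.93). With all 24 libraries a 2-fold effect lay outside the interval for 26 of the 27 genes (99.4% of all genes), the exception being Spp1. Over the 13 alternatives that did not leave out single libraries, Cst7 ran from -0.64 to 0.01 and Spp1 from -0.92 to -0.37. Without the 3 vehicle libraries low in choroid plexus RNA, 9 of 27 were lower at an unadjusted p under 0.05 (7.37% of all genes) and the median was -0.40, none passing the test (smallest adjusted p = 0.109). None of 16 homeostatic microglial genes passed or reached an unadjusted p of 0.05, against 8.79% of all genes at that p. P2ry12 was at 0.10 and Tmem119 at 0.00. The astrocyte genes Gfap (-0.01, -0.23 to 0.21) and Serpina3n (0.06, -0.23 to 0.35) gave adjusted p of 0.988 and 0.947. Over the same 13 alternatives Gfap ran from -0.17 to 0.01 and Serpina3n from -0.18 to 0.08.

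Myelin genes lay mostly above 0, within the spread between libraries. All 25 were tested and none passed; 22 were above 0, 1 (Car2) was higher at an unadjusted p under 0.05 against 2.26% of all genes, and the median was 0.17. With median ratio scaling of the libraries 4 were higher at that p, against 3.86% of all genes. Mbp, a main protein of compact myelin, ran from 612 to 965 FPKM (median 793) under vehicle and from 709 to 1486 FPKM (median 908) under BTKi. The groups overlapped widely. The difference was 0.26 (95% interval -0.00 to 0.51), adjusted p = 0.574. Mog was at 0.24 (-0.17 to 0.65) and Mal at 0.33 (-0.02 to 0.67). All 25 intervals lay within 2-fold, as did those of 99.4% of all genes. In naive mice the same genes had a median of -0.31, with 4 lower at an unadjusted p under 0.05 (8% of all genes), and the difference between states reached an unadjusted p under 0.05 in 10 of 25 (4.86% of all genes higher) and passed in none. Striatal neuron markers differed alongside, with medians of 0.14 in cuprizone and -0.44 in naive mice, and choroid plexus markers with 0.51 and -0.48. Without the 3 vehicle libraries low in choroid plexus RNA, the choroid plexus median in cuprizone mice was -0.35, with all 12 below 0. The myelin median there was 0.16. With the mean level of the choroid plexus or of the striatal markers as a covariate, the myelin median in cuprizone mice was 0.15 or 0.14. Such values for the difference between states are not given here, and its cause was not tested. Of 16 oligodendrocyte precursor genes none passed and 2 were higher at an unadjusted p under 0.05 (2.26% of all genes), with Pdgfra at -0.05 (-0.12 to 0.03). Enzymes of cholesterol synthesis lay slightly below 0: 21 of 22 were below 0, with a median of -0.08, none passed, and 10 were lower at an unadjusted p under 0.05 (6.53% of all genes). Hmgcs1 was at -0.09 (adjusted p = 0.499). That count was 7 with median ratio scaling (4.28% of all genes) and 7 with quantile normalization (4%).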

How the data were processed

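Per the labels' protocols, RNA extraction used Qiagen RNeasy Micro and library preparation TruSeq stranded mRNA chemistry, on poly(A) RNA. The authors deposited 1 table of FPKM values for 54446 versioned Ensembl genes in 24 libraries; the aligner, the counter and the genome build were not given in the sources used. Versioned IDs matched GENCODE M21 (GRCm38) for 53229 genes, the source of gene coordinates, and a symbol for 54409; Dusp1 and Mbp had no version match and get no coordinates.

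Fragments per library were estimated from FPKM times length in genes with 1 transcript, where 90.9% to 92.9% of values of up to 20 fragments lay within 0.1 of a whole number. Genes with a mean of at least 0.5 FPKM (15216) entered limma 3.58.1 (R 4.3.3) as log2(FPKM + 0.5) values (4 group means, no covariate, eBayes with trend, Benjamini-Hochberg at 0.05). The code was tested on simulated data. Tables and plots used Python 3.11.15, pandas 2.3.3, numpy 2.4.6 and matplotlib 3.10.9.

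All genes called in cuprizone mice are named, with called members and set examples of 42 gene lists. The comparison, members and lists were chosen with earlier results of these data known. Alternatives covered pseudocount, filter, scaling, weights, covariates, a replicate block, fewer groups and leaving out libraries; the fit without libraries low in choroid plexus RNA was added after seeing the data.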

Additional observations from a re-analysis of the deposited data

Results flagged for a closer look

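Single libraries stood apart in 14 of 328 groups of values examined, by the gap to the nearest library as a share of the group's range; chance gives about 1 in 20. In cuprizone mice these were Fos in BTKi replicate 4, the lowest at 9.72 FPKM, Map3k6 in BTKi replicate 2, the highest at 5.21 FPKM, Kdm6b in BTKi replicate 4, the highest at 6.43 FPKM, Htatip2 in vehicle replicate 7, the highest at 5.77 FPKM, and Fosb in vehicle replicate 5, the lowest at 3.71 FPKM. In naive BTKi mice they were Nr4a1 in replicate 1 (63.2 FPKM), Otud1 in replicate 2 (7.99 FPKM) and Egr3 in replicate 3 (66.8 FPKM), each the highest. In naive vehicle mice they were Dusp6 (24.96 FPKM) and Mx1 (0.304 FPKM) in replicate 3 and Enpp6 in replicate 2 (5.54 FPKM), each the highest, and Sgk1 in replicate 1 (23.0 FPKM), Blnk in replicate 2 (2.49 FPKM) and Btk in replicate 4 (0.272 FPKM), each the lowest.

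The BTKi effect differed between cuprizone and naive mice for 19 genes, by the interaction contrast in limma with adjusted p under 0.05. The difference, cuprizone minus naive on the log2 scale, was -0.90 for Nr4a1, -1.03 for Arc, -0.70 for Junb, -0.62 for Trib1, -0.67 for Per1, -0.54 for Plk3, -0.54 for Dusp6, -0.67 for Dusp5 and 0.72 for Btg2. Of 10 further genes, not called in cuprizone mice and named after their values were seen, Frmd6 was at -0.95, Klf10 at -0.81 and Stk40 at -0.44. Tet3 was at -0.38, Midn at -0.43, Hivep3 at -0.38 and Phf13 at -0.52. Sntb2 was at -0.39, 1810055G02Rik at -0.29 and Nab2 at -0.42. Of the 24 fits that left out 1 library, the call was lost in 19 for Nab2, 18 for 1810055G02Rik, 11 for Sntb2, 9 for Hivep3 and for Phf13, 5 for Midn and 1 for Tet3, and in none for Frmd6, Klf10 and Stk40. Frmd6, Stk40, Klf10, Tet3, Hivep3 and Sntb2 rose in naive mice.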

How the results depend on the processing

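In cuprizone mice the count of 27 genes became 16 with no filter on low values, 15 with the choroid plexus score as a covariate, and 11 without the 3 vehicle libraries low in choroid plexus RNA; leaving out single libraries gave 14 to 34. In naive mice the count of 33 became 21 with no filter, 145 with array weights, 8 with the striatal score, 3 with only the groups compared, 19 without the 3 libraries and 7 to 41 leaving out single libraries. For the difference, 19 became 12 with the choroid plexus score, 11 with the striatal score, 7 without the 3 libraries and 8 to 23 leaving out single libraries. No direction of a called gene reversed; Npas4 passed with the striatal score. The causes were not tested. The labels do not say that replicate numbers pair libraries. After the group mean of each gene was subtracted, same-numbered cuprizone libraries correlated by -0.27 to 0.32 and naive ones by -0.00 to 0.09. With a replicate block 17 genes passed in cuprizone mice (14 of the 27), 1 in naive mice and 8 for the difference.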

Other observations

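Genes of MHC class I presentation, which the interferon response raises, were all below 0 in cuprizone mice under BTKi (12 of 12, median -0.19), none passed the test, and 2 were lower at an unadjusted p under 0.05, against 6.53% of all genes. H2-D1 was at -0.24 (95% interval -0.50 to 0.02) and B2m at -0.15 (-0.41 to 0.12). Over the 13 alternatives that did not leave out single libraries, H2-D1 ran from -0.40 to -0.22 and B2m from -0.29 to -0.13. Of 12 complement genes none passed, 10 were below 0 and 2 were lower at an unadjusted p under 0.05, against the same 6.53%. C4b was at -0.08, and ran from -0.22 to -0.06 over those alternatives. The late activity-response genes of neurons had a median of -0.02, with 5 of 30 lower (6.53% of all genes) and 1 higher (2.26%) at an unadjusted p under 0.05. Mitochondrially encoded genes had a median of 0.06 and red blood cell genes, which show blood in the tissue, a median of 0.30, with none called.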
